A study of Mus musculus with 4 samples.

Results

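The genes of the ectodysplasin, RANK and Troy receptor axis were followed in mouse mammary basal cells grown with or without Wnt3A. The axis was taken as 9 genes, Eda, Edar, Eda2r, Edaradd, Tnfrsf19, Tnfrsf11a, Tnfsf11, Tnfrsf11b and Ngfr, and every probe set with one of these as its only gene symbol was used. This gave 25 of the 45037 probe sets on the array other than array controls, and 9 of 18193 genes. The genes were chosen by their roles and by their Wnt3A against control differences on these same arrays, so the differences are a description and carry no test. The cells came from virgin CD1 female mice 8 to 12 weeks old and were sorted as negative for the lineage markers CD31, CD45 and TER119, positive for CD24 and high for CD29, a gate enriched for mammary stem cells. They formed colonies in Matrigel, a gel of basement membrane proteins, in medium with 50 ng/ml EGF for all groups. One group received 200 ng/ml purified Wnt3A, a ligand of the canonical Wnt pathway, throughout culture, and the other received the vehicle, 1% CHAPS in PBS. RNA was taken from passage 2 colonies after 6 to 7 days and hybridised to 2 arrays per group, called Wnt3A 1, Wnt3A 2, control 1 and control 2. Whether arrays of 1 group stand for separate animals or separate cultures is not stated in the labels, and their spread may be technical.

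All 9 genes encode ligands, receptors or adaptors of the tumour necrosis factor superfamily or its receptors. Ectodysplasin, the product of Eda, is made as splice forms that bind either Edar or Eda2r, and Edar passes its signal through the adaptor Edaradd to NF-kappaB. This route is known for the formation of hair, teeth, sweat glands and mammary buds, where it acts together with Wnt signalling. RANK ligand, encoded by Tnfsf11, binds RANK, encoded by Tnfrsf11a, and osteoprotegerin, encoded by Tnfrsf11b, is the secreted decoy receptor that captures the ligand. In the mammary gland RANK ligand from hormone-sensing luminal cells carries the progesterone signal to neighbouring epithelial cells. Troy, the product of Tnfrsf19, is a receptor found on several epithelial stem cells and known as a Wnt target, and Ngfr encodes p75, the low-affinity neurotrophin receptor.

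Deposited values were log2 values from which each probe set's median over the 4 arrays had been removed, so each value states how far an array lay from the median, with no level. The differences between arrays were left intact. The smallest step between stored numbers still gave an upper limit on the median level of some probe sets, since numbers under log2 8 and under log2 4 are stored with finer steps. By this reading 6 of the 25 probe sets had a median near or below log2 4, the dim end of the array, against 18.8% of all probe sets. A further 14 had a median near or below log2 8, and 5 had no limit. A probe set with no limit need not be bright. Markers of the sorted cell type could not be checked by level for the same reason. The probe set of Krt5 and the 3 probe sets of Krt14, keratins of basal cells, had no upper limit. Over the whole basal marker list 14 of 28 probe sets had none, and over the luminal marker list 12 of 19, against 33.7% of all probe sets. A median near or below log2 4 was found for 2 of the 28 basal and 1 of the 19 luminal probe sets. These limits thus do not set basal cells apart from luminal cells. Over markers of other cells, the number of probe sets with a median near or below log2 4 was 3 of 10 for leukocytes, 2 of 7 for endothelium, 3 of 6 for adipocytes, 4 of 16 for fibroblasts and 1 of 14 for Schwann cells.

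Most of the 25 probe sets differed little between colonies with Wnt3A and controls. Eda2r was higher with Wnt3A, Edar was lower in 1 of its 2 probe sets, and a single Tnfrsf19 probe set was much higher in 1 of the 2 Wnt3A arrays. For 20 of the 25 the difference was smaller than 0.3 log2 units in either direction, as it was for 80.2% of all probe sets. The median difference of the 25 was 0.04, against 0.01 over all probe sets. Both Wnt3A arrays lay above both controls for 6 of the 25 and below both for 1, where 17.4% and 16.3% of all probe sets did so. An absolute difference of 1 log2 unit or more was found for 2 of the 25, and for 1.59% of all probe sets. The fit of limma across all probe sets called 0 of them at an adjusted p under 0.05, 0% of the array, and so 0 of the 25. An unadjusted p under 0.05 was found for 2801 probe sets, 6.22% of the array, where chance gives 2252, and 2 of them were among the 25. The median standard error of a difference was 0.16 log2 units.

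**Figure D1:**
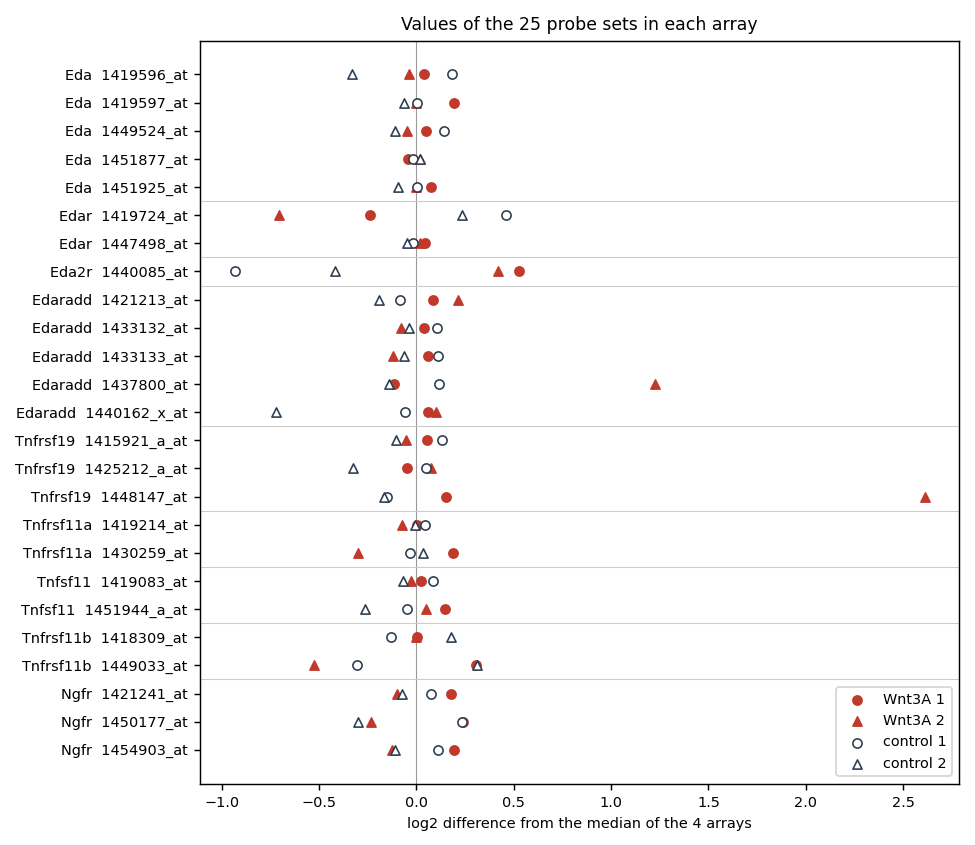
Values of the 25 probe sets in each array, as log2 difference from the median of the 4 arrays (x axis), by gene and probe set (y axis). Filled red symbols are Wnt3A arrays and open symbols controls, with circles for arrays numbered 1 and triangles for arrays numbered 2. Most points lie within 0.3 of 0, and Wnt3A 2 stands alone at 2.61 for Tnfrsf19 1448147_at and at 1.22 for Edaradd 1437800_at. Both Wnt3A arrays lie above both controls for 6 of the 25 and below both for 1 (17.4% and 16.3% of all probe sets). The gap between the groups is widest for Eda2r and Edar 1419724_at.

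The upstream sequences of the 3 genes with the largest differences are shown because Wnt3A acts on transcription through Tcf/Lef factors, which bind DNA directly. RefSeq windows were found for 8 of the 9 genes, 9 windows in all, and 250 bases before the annotated start were read for Edar, Eda2r and the 2 starts of Tnfrsf19. Capitals mark a match to the Tcf/Lef letters ATCAAAG or AACAAAG on either strand.
Edar, GRCm38.p6 chr10:58675697-58675946, minus strand: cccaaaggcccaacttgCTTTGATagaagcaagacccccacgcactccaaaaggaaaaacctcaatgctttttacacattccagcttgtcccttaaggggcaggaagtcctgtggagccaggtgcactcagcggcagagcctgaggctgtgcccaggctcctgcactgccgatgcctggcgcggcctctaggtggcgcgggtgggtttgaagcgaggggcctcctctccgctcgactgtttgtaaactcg
Eda2r, GRCm38.p6 chrX:97377210-97377459, minus strand: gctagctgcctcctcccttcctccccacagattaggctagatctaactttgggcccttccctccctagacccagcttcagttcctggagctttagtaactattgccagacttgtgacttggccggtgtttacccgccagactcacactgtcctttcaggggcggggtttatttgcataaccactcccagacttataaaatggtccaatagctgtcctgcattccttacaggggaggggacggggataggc
Tnfrsf19, GRCm38.p6 chr14:61037988-61038237, minus strand: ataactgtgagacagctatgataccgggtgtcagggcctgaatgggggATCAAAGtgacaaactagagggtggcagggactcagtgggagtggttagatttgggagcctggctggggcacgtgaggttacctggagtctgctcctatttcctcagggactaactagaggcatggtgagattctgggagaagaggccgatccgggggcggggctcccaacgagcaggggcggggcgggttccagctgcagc
Tnfrsf19, GRCm38.p6 chr14:61046856-61047105, minus strand: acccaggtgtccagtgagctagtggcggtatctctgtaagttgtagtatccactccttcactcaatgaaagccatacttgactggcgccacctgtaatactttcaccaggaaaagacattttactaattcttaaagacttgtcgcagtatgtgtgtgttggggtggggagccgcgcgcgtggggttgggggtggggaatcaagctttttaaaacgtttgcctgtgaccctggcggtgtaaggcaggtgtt

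Of the 9 windows, 2 held such a match, those of Edar and of one Tnfrsf19 start, against 8.06% of all 32851 windows of this length. The Edar match, CTTTGAT, ran from 233 to 227 bases before the start and reads ATCAAAG on the other strand. The Tnfrsf19 match, ATCAAAG, ran from 202 to 196 bases before the start. Eda2r had no match in its window. The other 6 windows, of Eda, Edaradd, Tnfrsf11a, Tnfsf11, Ngfr and the second Tnfrsf19 start, had none either. A match is a string of letters and not a shown binding site.

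Eda, the ligand gene, had 5 probe sets, and none of them separated the groups. Most probe sets of the array did not either, as 17.4% of all separated higher and 16.3% lower. The differences of the 5 ran from -0.02 to 0.13, with standard errors of 0.12 to 0.21. The probe set 1419597_at had the largest difference of the 5. It was at 0.19 and -0.00 in Wnt3A 1 and Wnt3A 2, against 0.00 and -0.06 in control 1 and control 2, so that 1 Wnt3A array lay above the other 3 arrays, which were close together. The probe set with the widest spread, 1419596_at, was at 0.04 and -0.04 with Wnt3A, against 0.18 and -0.33 in the controls. There the controls lay on both sides of the Wnt3A arrays and their gap exceeded any difference between the groups. The difference of that probe set was 0.07 ± 0.21 (SE, n = 2 arrays each), and it was 0.33 without control 1 and -0.18 without control 2. The other 3 probe sets of Eda differed by -0.02, -0.01 and 0.08, and 2 of the 3 had a median near or below log2 4.

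Edar, the receptor that signals through Edaradd, had 2 probe sets that gave different pictures. In 1419724_at the values were -0.24 in Wnt3A 1 and -0.70 in Wnt3A 2, against 0.46 in control 1 and 0.24 in control 2. Both Wnt3A arrays thus lay below both controls, and the gap between groups was about as wide as the gap between the 2 Wnt3A arrays. The difference was -0.82 ± 0.21 log2 units (SE, n = 2 arrays each), 1.76-fold lower with Wnt3A. It lay between -1.05 without Wnt3A 1 and -0.58 without Wnt3A 2. The second probe set, 1447498_at, was at 0.04 and 0.02 with Wnt3A, against -0.02 and -0.05 in the controls. Its groups did not overlap, yet its difference of 0.06 ± 0.12 was smaller than its standard error, and its median was below log2 4. The differences of the 2 probe sets were 0.88 apart, a span exceeded by 3.4% of the 9010 genes with at least 2 probe sets, whose median span was 0.23.

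Eda2r, the other ectodysplasin receptor, also called Xedar, had 1 probe set, 1440085_at. It was at 0.53 in Wnt3A 1 and 0.42 in Wnt3A 2, against -0.93 in control 1 and -0.42 in control 2. The Wnt3A arrays were close to each other and both were well above the controls, which were further apart. The difference was 1.15 ± 0.21 log2 units (SE, n = 2 arrays each), 2.22-fold higher with Wnt3A. When each array was left out it ranged between 0.89, without control 1, and 1.41, without control 2. With only 1 probe set, no second measurement of the gene was at hand. Eda and Eda2r both lie on chromosome X, and the ligand gene's probe sets did not share the shift of its receptor.

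Edaradd, the adaptor of Edar, had 5 probe sets with differences from -0.06 to 0.57. The groups separated in 1421213_at, at 0.09 and 0.22 in Wnt3A 1 and Wnt3A 2, against -0.09 and -0.19 in control 1 and control 2, a difference of 0.29 ± 0.13. They also separated in 1440162_x_at, at 0.06 and 0.10 with Wnt3A, against -0.06 and -0.72 in the controls, where control 2 lay far below the other 3 arrays. The suffix of that probe set marks probes that may also bind other transcripts, and its difference of 0.47 ± 0.25 was 0.14 without control 2 and 0.80 without control 1. In 1437800_at, Wnt3A 2 stood at 1.22, with Wnt3A 1 at -0.12, against 0.12 in control 1 and -0.14 in control 2. The difference of 0.57 ± 0.48 therefore rested on 1 array: it was -0.10 without Wnt3A 2 and 1.24 without Wnt3A 1. The remaining probe sets, 1433132_at and 1433133_at, differed by -0.05 and -0.06 with overlapping groups. The 5 probe sets of the adaptor thus did not give 1 size. The differences of 1433132_at and 1433133_at were smaller than their standard errors of 0.13 and 0.14, so they do not show an opposite direction.

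**Figure D2:**
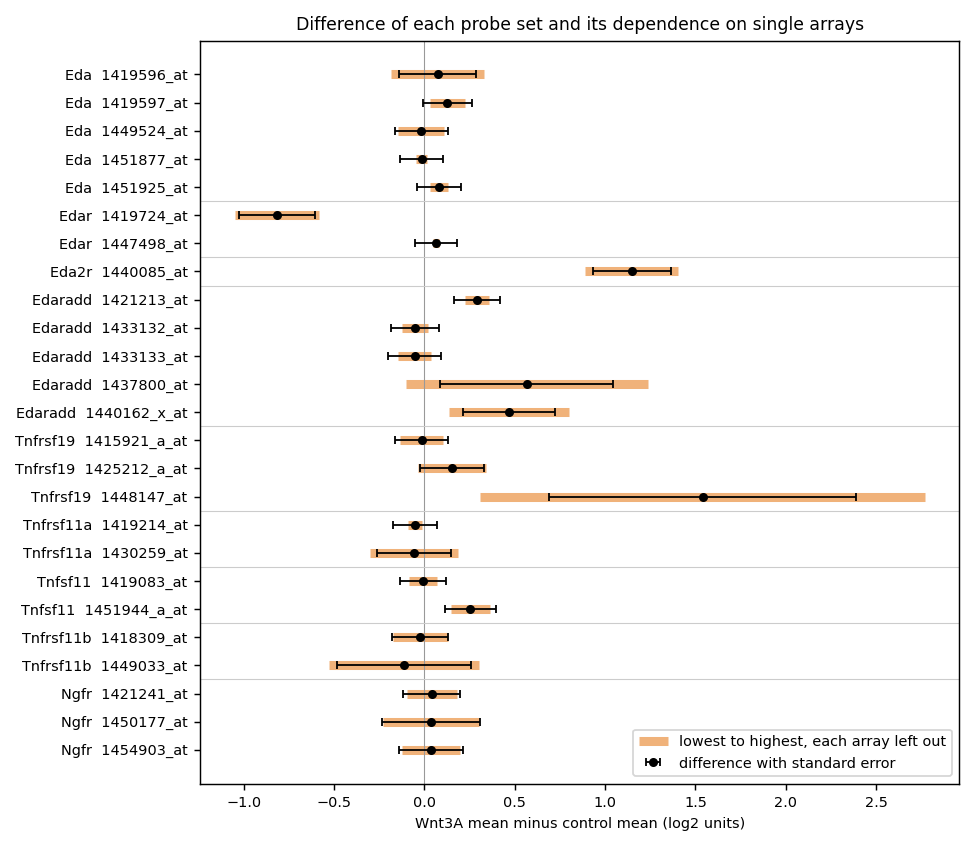
Difference of each probe set, Wnt3A mean minus control mean in log2 units (x axis), by gene and probe set (y axis). Points with bars are the difference and its standard error from the fit over all probe sets (n = 2 arrays each), and orange bands run between the lowest and highest difference when each array was left out. Eda2r stays between 0.89 and 1.41 and Edar 1419724_at between -1.05 and -0.58, while Tnfrsf19 1448147_at runs from 0.31 to 2.77 and Edaradd 1437800_at crosses 0.

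Tnfrsf19, which encodes Troy, had the largest difference of the 25 probe sets and the largest disagreement among probe sets. In 1448147_at it was at 0.15 in Wnt3A 1 and 2.61 in Wnt3A 2, against -0.15 in control 1 and -0.17 in control 2. The 2 controls were nearly equal, Wnt3A 1 was slightly above them, and Wnt3A 2 was far above all 3. The difference was 1.54 ± 0.85 log2 units (SE, n = 2 arrays each), and it was 0.31 without Wnt3A 2 and 2.77 without Wnt3A 1. The stored step of control 2 puts the median of this probe set below log2 4.17, so 3 of the 4 arrays were near the dim end and Wnt3A 2 alone was well above it. The other probe sets did not share this. In 1425212_a_at the values were -0.05 and 0.07 with Wnt3A, against 0.05 and -0.33 in the controls, with a difference of 0.15 ± 0.18. In 1415921_a_at they were 0.05 and -0.05 with Wnt3A, against 0.13 and -0.10 in the controls, with a difference of -0.02 ± 0.15. In both, Wnt3A 2 lay close to Wnt3A 1, and the groups overlapped. The suffix of these names marks probes shared by several transcripts of the gene. The span of 1.55 between the 3 differences was exceeded by 0.377% of genes with at least 2 probe sets. As the mean of all 3 probe sets the gene differed by 0.56, and as the mean of the 2 whose level limit was higher by 0.07.

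The genes whose values lay closest to those of Tnfrsf19 1448147_at over the 4 arrays, by root mean square difference, were Adh1 (0.07 log2 units), Akr1c18 (0.12) and Lce1d (0.13). Adh1 encodes an alcohol dehydrogenase that can oxidise retinol, Akr1c18 a steroid dehydrogenase that inactivates progesterone, and Lce1d a late cornified envelope protein. In Wnt3A 2 they stood at 2.56, 2.52 and 2.86, and in the other 3 arrays between -0.36 and 0.21. With 4 arrays, this likeness says that Wnt3A 2 was high and the others were level. Squamous marker genes, which mark cornifying keratinocytes, were higher in both Wnt3A arrays and most so in Wnt3A 2. Of their 20 probe sets, from 12 measured genes, 15 lay above both controls in both Wnt3A arrays and 0 below, where the background shares are 17.4% and 16.3%. The 20 had a median of 0.15 in Wnt3A 1 and 1.01 in Wnt3A 2, against -0.45 in control 1 and -0.35 in control 2. Of the 20, 16 were highest in Wnt3A 2, as were 21.5% of all probe sets. Eda2r and 1 Edar probe set also differed in both Wnt3A arrays. The part of such cells in the Tnfrsf19 and Edaradd values of Wnt3A 2, or in those of Eda2r and Edar, was not tested. A change in the number of cells of a type and a change in RNA per cell cannot be told apart in these samples.

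**Figure D3:**
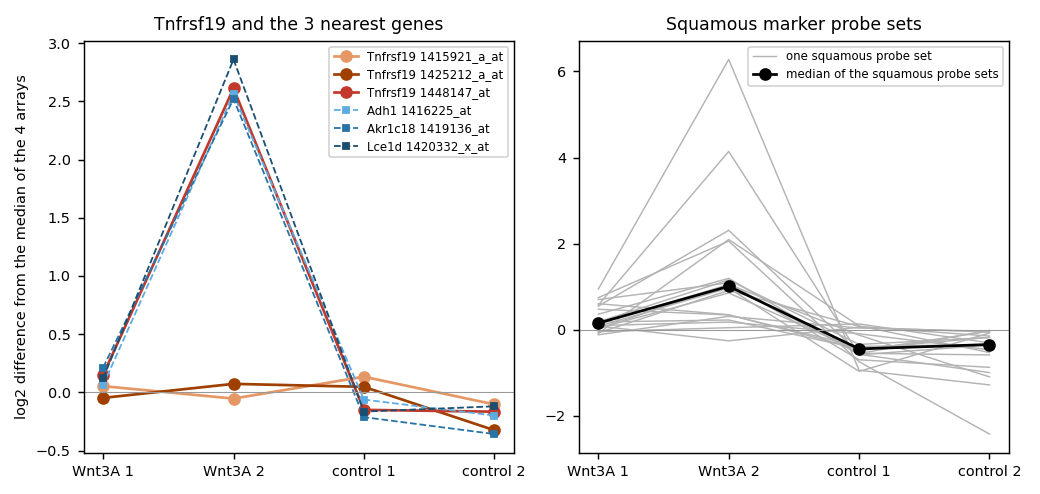
Log2 difference from the median of the 4 arrays (y axis) in each array (x axis). The left panel holds the 3 Tnfrsf19 probe sets (solid lines) and the 3 genes closest to 1448147_at (dashed lines), and the right panel the 20 squamous marker probe sets (grey) with their median (black). Wnt3A 2 is at 2.61 for Tnfrsf19 1448147_at, while the other Tnfrsf19 probe sets stay between -0.33 and 0.13 in every array, and the squamous median is highest in Wnt3A 2, at 1.01.

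The RANK genes showed no separation between the groups apart from 1 probe set of the ligand. Overlap was also the common outcome on the array, where 17.4% of all probe sets separated higher and 16.3% lower. For Tnfsf11, RANK ligand, 1451944_a_at was at 0.15 in Wnt3A 1 and 0.05 in Wnt3A 2, against -0.05 in control 1 and -0.27 in control 2. Both Wnt3A arrays lay above both controls, but the controls differed from each other by more than the gap between groups, and the difference was 0.25 ± 0.14, with 0.15 without control 2 and 0.36 without control 1. The other probe set, 1419083_at, differed by -0.01 ± 0.13 and had a median below log2 4.02. For Tnfrsf11a, RANK itself, 1430259_at was at 0.19 and -0.30 with Wnt3A, against -0.03 and 0.03 in the controls. The Wnt3A arrays thus lay on both sides of the controls, and leaving out Wnt3A 1 or Wnt3A 2 gave -0.30 or 0.19. Its second probe set, 1419214_at, differed by -0.05 ± 0.12, close to the -0.06 ± 0.20 of the first. For Tnfrsf11b, the decoy receptor osteoprotegerin, 1449033_at was at 0.30 and -0.53 with Wnt3A, against -0.30 and 0.31 in the controls. Here the spread within each group was far wider than the difference of -0.12 ± 0.37, and 1418309_at differed by -0.02 ± 0.16.

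Ngfr had 3 probe sets with small differences between the groups. These were 0.04, 0.04 and 0.03, with standard errors of 0.16, 0.27 and 0.18. The probe set 1450177_at was at 0.24 in Wnt3A 1 and -0.23 in Wnt3A 2, against 0.23 in control 1 and -0.30 in control 2. In all 3 probe sets the 2 arrays numbered 1 were above the 2 arrays numbered 2, whatever the treatment. Of the 25 probe sets, 12 had this order (48%), including 4 of the 5 of Eda, and 1 had the opposite order. Over all probe sets the shares were 28.3% and 17%. Schwann cell markers, which stand for another cell type rich in p75, had medians of 0.23 and -0.06 in Wnt3A 1 and Wnt3A 2, against 0.05 and -0.08 in control 1 and control 2 over 14 probe sets, and their part in the Ngfr values was not tested.

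The rest of the pathway was read from lists of related genes, with the probe set of the largest absolute difference standing for a named gene. The limma fit called 0 members of any of the 7 lists in either direction at an adjusted p under 0.05 (background 0%), and 29 of their 201 probe sets had an unadjusted p under 0.05 (background 6.22%). The lists were chosen with earlier results of these data known, so their counts and medians are a description and carry no test. Axin2, the feedback inhibitor that reports canonical Wnt signalling, was at 1.20 and 0.58 in 1 of its 2 probe sets with Wnt3A, against -0.58 and -1.18 in the controls. Its difference was 1.77 ± 0.32, beside 1.15 ± 0.21 for Eda2r, the member whose 2 Wnt3A arrays were both well above the controls. The second Axin2 probe set differed by -0.12 ± 0.13 and had a median near or below log2 4. The Wnt feedback list as a whole had a median difference of 0.14 over 24 probe sets, with 10 above and 4 below in both Wnt3A arrays (background 17.4% and 16.3%). Lgr5, a stem cell receptor, differed by -1.48 ± 0.26, and by -0.14 in its second probe set, and Notum, a Wnt deacylase, by 1.21 ± 0.27.

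The 31 probe sets of 21 other receptors of the family had a median difference of 0.05, with 6 separated higher and 1 lower (background 17.4% and 16.3%). The death receptor Tnfrsf10b had the largest difference, 0.65 ± 0.19, followed by the Tweak receptor Tnfrsf12a (0.40 ± 0.20) and Cd40 (0.34 ± 0.13). Tnfrsf12a differed by 0.23 without Wnt3A 1 and by 0.24 without control 2, and the other 2 Cd40 probe sets by 0.03 and 0.14. Eda2r, at 1.15, had a larger difference than any of the 21 other receptors measured. Eda2r was chosen partly by its difference on these same arrays, so this order is a description and cannot set it apart from the family. The 18 probe sets of 12 other ligands had a median of -0.01, with 3 separated higher and 5 lower against the same background. Tnfsf10, which encodes the death ligand Trail, was at -0.86 and -0.62 with Wnt3A, against 0.62 and 1.47 in the controls, a difference of -1.78 ± 0.32. The adaptors, kinases and subunits between the receptors and NF-kappaB, 20 genes and 55 probe sets, had a median of 0.14, with 15 separated higher and 2 lower, where the background shares are 17.4% and 16.3%. Traf1, an adaptor that NF-kappaB induces, differed by 0.74 ± 0.18 and by 0.24 in its second probe set, the inhibitor gene Nfkbie by 0.67 ± 0.30 and the subunit gene Rel by 0.57 ± 0.22. Nfkbie differed by 0.31 without Wnt3A 1 and by 1.03 without Wnt3A 2, and Rel by 0.36 without Wnt3A 2.

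Genes that ectodysplasin is known to induce in skin appendages and mammary buds had a median difference of 0.22 over 25 probe sets, with 9 separated higher and 2 lower (background 17.4% and 16.3%). Relb, Nfkbie and Tnfaip3 were also on the list of the route to NF-kappaB, and Ltb on that of other ligands. The counts of these lists are therefore not separate readings. Shh, the Sonic hedgehog ligand, was at 1.72 and 1.04 with Wnt3A, against -1.12 and -1.04 in the controls, a difference of 2.46 ± 0.26, and its second probe set differed by 0.23. The chemokine gene Cxcl10 differed the other way, by -1.97 ± 0.37. Ccn2, which encodes a matricellular growth factor, differed by 1.78 ± 1.13, and by 0.13 without control 1 and 3.43 without control 2. Shh and Cxcl10, both on the list, thus differed in opposite directions.

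Genes around RANK signalling in the mammary gland had a median difference of -0.25 over 22 probe sets, with 3 separated higher and 8 lower (background 17.4% and 16.3%). Pgr, the progesterone receptor that acts upstream of RANK ligand, was at -0.47 and -0.31 with Wnt3A, against 0.31 and 1.41 in the controls, a difference of -1.25 ± 0.40 that was -0.70 without control 2 and -1.80 without control 1. Its other 2 probe sets differed by -0.20 and -0.35. Id2, a helix-loop-helix factor that acts downstream of RANK, differed by -1.06 ± 0.30, and by -0.68 without Wnt3A 2. Esr1, the oestrogen receptor gene, differed by -0.80 ± 0.54 with overlapping groups, and by -0.07 without control 2, and its other 2 probe sets by 0.15 and -0.61. The Esr1 probe set that differed by 0.15 had a median near or below log2 4. Luminal markers, which share Pgr, Esr1 and Elf5 with this list, had a median difference of -0.20 over 19 probe sets, with 2 separated higher and 7 lower (background 17.4% and 16.3%), and their part in these values was not tested. Basal markers had a median difference of 0.19 over 28 probe sets, with 9 separated higher and 3 lower against the same background. Krt15 differed by -2.62 ± 0.35, and Oxtr by -2.60 ± 0.12 and by -0.17 in its other probe set. Myh11 differed by 1.61 ± 1.39 with overlapping groups, by -0.29 without control 1, and by -0.02 in its other probe set. The part of basal cells in the values of the 9 genes was not tested. The 4 probe sets of Tnfsf11 and Tnfrsf11a differed by -0.06 to 0.25. These were smaller in size than the Pgr differences of -1.25 and -0.35, but the 0.25 exceeded the Pgr difference of -0.20 in size.

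Partners of p75 and Troy in neurotrophin and Nogo signalling had a median difference of -0.00 over 32 probe sets, with 2 separated higher and 7 lower, where the background shares are 17.4% and 16.3%. Bdnf, a neurotrophin that binds p75, was at 0.81 and 0.43 with Wnt3A, against -0.77 and -0.43 in the controls, a difference of 1.22 ± 0.21, and its second probe set differed by 0.48. In the first, both Wnt3A arrays lay well above both controls, while the 3 Ngfr probe sets differed by 0.03 to 0.04. Sort1, which encodes the p75 co-receptor sortilin, differed by -0.41 ± 0.15 in 1 probe set and by 0.01 and -0.02 in the other 2.

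**Figure D4:**
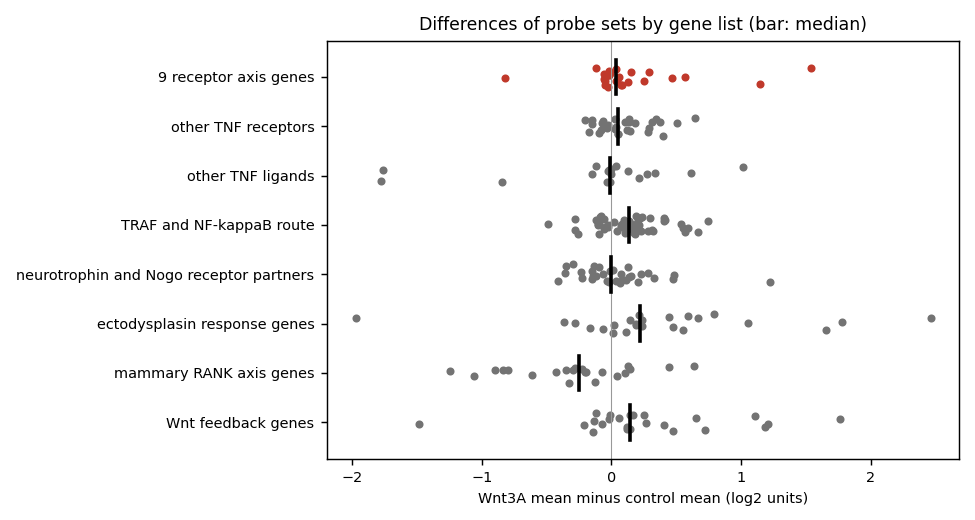
Wnt3A mean minus control mean in log2 units (x axis) for each probe set of the 9 genes (red) and of the 7 lists (grey), with a bar at each median. The median of the 9 genes is 0.04, that of the ectodysplasin response genes 0.22 and that of the mammary RANK genes -0.25, and the 3 red points furthest out are Tnfrsf19 at 1.54, Eda2r at 1.15 and Edar at -0.82.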

How the data were processed

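RNA from 2 Wnt3A and 2 control samples was measured on single-colour Affymetrix mouse arrays. The deposited log2 values came from RMA according to the labels' tool list, per the submitters' processing notes; version and centring are not given in the sources used here. Every one of the 45101 rows had a median of 0 over the 4 arrays within 5.0e-07. Probe sets were named from the platform annotation (34945 with 1 symbol, 932 with several, 9160 with none), and RefSeq gene identifiers of 34741 of the first kind were found, with 0 symbols changed. The upper limits on level assume 4-byte storage, which the steps of 99.5% of values fit; 2.08% of 96 ribosomal protein probe sets fell near or below log2 4, against 18.8% of all.

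The fit of all 45037 probe sets used limma 3.58.1 under R 4.3.3, through its lmFit and eBayes functions, with two-sided p-values adjusted after Benjamini and Hochberg, no covariate, 2 residual and 2.3 prior degrees of freedom. An exact permutation test of 2 against 2 arrays cannot go below a two-sided p of 0.33. The number of arrays limits the precision. The members and lists were chosen with earlier results of these data known. The text names every member, Axin2, the 3 nearest genes to the member with the largest difference, and some, not all, of the 3 genes per list with the largest absolute difference. Lists are given by counts and medians. Alternatives were each array left out, the replicate number as a block, other normalizations, summaries, filters and thresholds. Python 3.11.15 with matplotlib 3.10.9 drew the figures. Promoter windows are RefSeq's, GRCm38.p6.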

Additional observations from a re-analysis of the deposited data

How the results depend on the processing

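The count of probe sets called at an adjusted p under 0.05 was 0 over all probe sets, over the 25 and over the lists, and it was 0 under each alternative run: each array left out (0 to 0), quantile normalization, centring of each array, the probe sets limited to about log2 4 left out, genes as means of all probe sets or of those with the higher level limit, robust eBayes, and, over all probe sets, a threshold of 0.1. With the replicate block it was also 0, with 4882 probe sets at an unadjusted p under 0.05. Arrays of the same number deviated together (correlation 0.526 over all probe sets), but with 2 pairs and no label that ties the numbers to a shared animal or day, pairing is not established. Among the 25 differences, quantile normalization, centring and the replicate block changed 0 signs. Leaving out an array changed 4 signs without Wnt3A 1, 8 without Wnt3A 2, 5 without control 1 and 8 without control 2; of these, 1 was of a difference over 0.2, that of Edaradd 1437800_at without Wnt3A 2 (-0.10). Averaging probe sets into genes, all or only those with the higher level limit, turned 7 signs, each of a difference under 0.2, and moved 9 and 6 of the 25 values by more than the spread within groups; Edar differed by -0.38 as the mean of all, against -0.82 for 1419724_at. With 2 arrays a group, failing the threshold does not show that a gene did not differ.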
